A study of Mus musculus with 15 samples.

Results

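The 12 arrays of protein-treated duodenal organoid monolayers were divided by how strongly they carried a differentiated enterocyte signature, and the genes other than that signature are described here. For each array, the log2 intensities of Alpi, Akp3, S100g and Krt20 were averaged. Within each protein source the array with the highest average was taken as the high-marker array, which gave 4 high-marker arrays and 8 other treated arrays of 15 arrays in the series. Because the arrays were chosen by measured expression, every value below describes the chosen arrays and no difference between the sides was tested. The monolayers were grown from duodenal crypts of 3 female C57BL/6J mice aged 9 weeks, in a medium that holds EGF, Noggin, WNT3A and R-Spondin. They were exposed for 6 h to casein (CAS), soybean meal (SBM), spray dried plasma protein (SDPP) or yellow meal worm (YMW), or to DMEM as the medium control (MC), with 3 arrays in each group. Each sample pooled the RNA of 3 culture wells and was hybridized to an Affymetrix mouse gene 1.1 ST array. The labels do not state which mouse a sample came from, so a difference between arrays of a source cannot be told apart from a difference between mice.

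Cells of the small intestine are made in the crypt, where stem cells marked by Lgr5 and Olfm4 divide under Wnt signals, pass through a phase of rapid division and then differentiate. Most become absorptive enterocytes, which carry a brush border of microvilli with digestive enzymes and transporters and which change their gene programme from nutrient uptake to purine and lipoprotein metabolism as they approach the villus tip. Alpi and Akp3 encode intestinal alkaline phosphatases, S100g the calcium carrier calbindin-D9k and Krt20 a keratin of mature enterocytes. In a bulk culture, more enterocytes and more RNA per enterocyte cannot be told apart.

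The high-marker arrays were CAS replicate 3, SBM replicate 3, SDPP replicate 1 and YMW replicate 1, with marker means of 11.54, 11.27, 11.96 and 11.24 on the log2 scale. The other 8 arrays ranged from 9.93 to 11.60 with a median of 10.30. The margin of the high-marker array over the second array of its source was 0.99 in CAS, 0.80 in SBM, 0.36 in SDPP and 0.94 in YMW. The arrays just inside and just outside the choice were therefore closest in SDPP, where replicate 2 had a marker mean of 11.60 and replicate 3 one of 10.29. SDPP replicate 2 lay above the high-marker arrays of CAS, SBM and YMW and stood apart from the other 7 arrays on its side, whose highest mean was 10.55. Counts that moved by over 1.5 times when it, or another array, was left out and the choice was made again are given both ways. The markers differed unequally, by a mean of 1.68 ± 0.16 for Krt20, 0.99 ± 0.14 for Akp3, 0.84 ± 0.18 for S100g and 0.67 ± 0.10 for Alpi (SD, n = 4 sources). The MC arrays took no part in the choice. Their marker means were 10.29, 12.43 and 12.53 in replicates 1, 2 and 3, so MC replicate 1 lay among the lower treated arrays and the others lay above all 12 treated arrays.

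**Figure D1:**
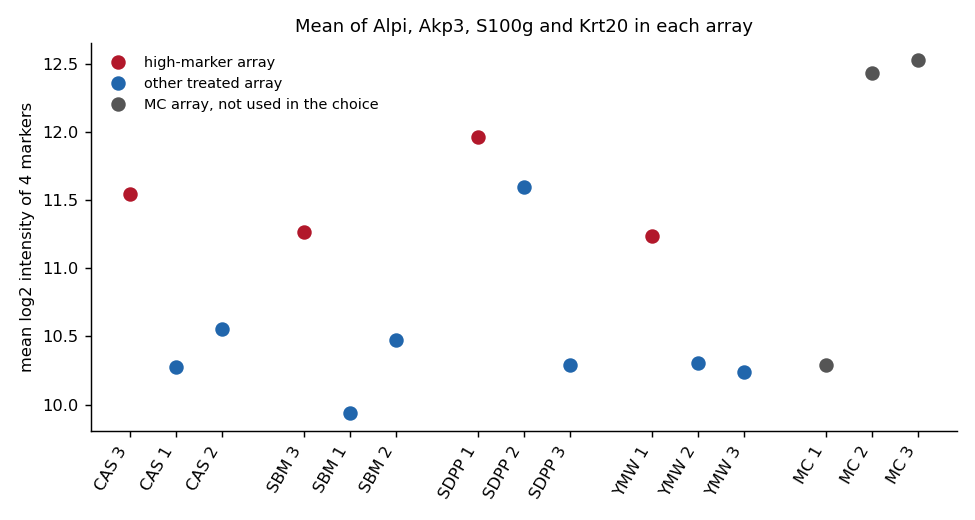
Mean log2 intensity of Alpi, Akp3, S100g and Krt20 (vertical axis) in each of the 15 arrays, with the high-marker array of a source in red, the other treated arrays in blue and the MC arrays in grey. SDPP replicate 2, at 11.60, sits above the high-marker arrays of CAS, SBM and YMW, and MC replicates 2 and 3, at 12.43 and 12.53, sit above all treated arrays.

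The name crypt-like for the other 8 arrays was only partly matched by their genes. The mean level of 20 crypt base stem cell genes was 8.49 to 8.54 in the high-marker arrays, against 8.56 to 8.88 in the other treated arrays, so the sides did not overlap, but they lay close together. Epcam, which marks epithelium, was at 10.36 to 10.70 in the high-marker arrays and at 10.36 to 10.62 in the others, and the intestinal factor Cdx2 was at 9.87 to 10.15 and 9.83 to 10.05. Since the crypt genes differed so little, the sides are called high-marker arrays and other treated arrays below. Over the 15 arrays, median intensities were alike, from 21.7 to 24.1.

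A difference is given below as the log2 intensity of the high-marker array minus the mean of the other 2 arrays of its source, averaged over the 4 sources with its SD. A gene was counted when the high-marker array lay beyond both other arrays in each of the 4 sources and the mean difference was at least 1.5-fold. Of 18816 genes described, 138 were counted higher, which is 0.733% of them, and 2 were counted lower, which is 0.0106%. These shares follow from the choice of arrays, and nothing is read from them. They are the shares over all genes to set beside each count of a list or family with all arrays below. The mean differences of the 138 genes ran from 0.59 to 2.66 with a median of 0.86, their median SD was 0.20, and 43 of them were at least 2-fold. All 138 had a mean level above the background, a log2 intensity of 3.91 set by receptors of smell. With no minimum fold, 814 genes lay above both other arrays in all 4 sources and 764 lay below both, so the asymmetry was in the size of the differences. Only 5 genes had a mean difference of 1.5-fold or more downward. Without SDPP replicate 2, 195 genes were counted higher, among them all of the 138, and 8 were counted lower.

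The nucleotide pyrophosphatase Enpp3, an ectoenzyme that cleaves extracellular nucleotides, had the largest difference. Its log2 intensity was 8.25 in CAS replicate 3, 7.64 in SBM replicate 3, 9.41 in SDPP replicate 1 and 7.33 in YMW replicate 1, against a lowest value of 4.76, a median of 4.93 and a highest value of 8.65 in the other 8 arrays. The highest of these was SDPP replicate 2, and the other 7 reached 5.69 at most. The mean difference was 2.66 ± 0.36, or 6.33-fold, and it was 3.14 without SDPP replicate 2. In the MC arrays Enpp3 was at 5.18, 9.57 and 10.07. Pmp22, which encodes a membrane protein of myelin and of epithelial junctions, was at 9.69, 8.92, 10.34 and 8.86 in the high-marker arrays of CAS, SBM, SDPP and YMW, against 6.57 to 9.93 with a median of 7.20 in the other arrays. Its mean difference was 1.90 ± 0.15. The same arrangement, with SDPP replicate 2 inside the range of the high-marker arrays and the other 7 arrays below it, held for every one of the 12 genes with the largest differences.

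The others of these 12 genes fall into transporters, enzymes and proteins of the cell surface. Slc2a2 differed by 1.74 ± 0.13 and encodes the glucose and fructose transporter GLUT2 of the basolateral membrane. The guanine deaminase Gda differed by 1.71 ± 0.23. Among surface proteins, the C-type lectin-like Clec2h differed by 1.69 ± 0.22, the membrane mucin Muc3 by 1.62 ± 0.43, Ly6m of the Ly6 family by 1.55 ± 0.34 and the mucin-like Mucl3 by 1.46 ± 0.36. The lipoprotein component Apoa1 differed by 1.60 ± 0.12, the sulfotransferase Sult1b1 by 1.47 ± 0.29, the peptide transporter Slc15a1 by 1.45 ± 0.23 and the cytochrome P450 Cyp2c55 by 1.39 ± 0.28. Slc15a1 was not above background in 4 of the 8 other arrays, so that its difference and its rank rest on levels known there only as a bound. Muc3 was the least even of them, since its difference was 0.99 in SDPP, where replicates 1 and 2 read 11.47 and 11.44, against 1.69 to 1.94 in the other sources.

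**Figure D2:**
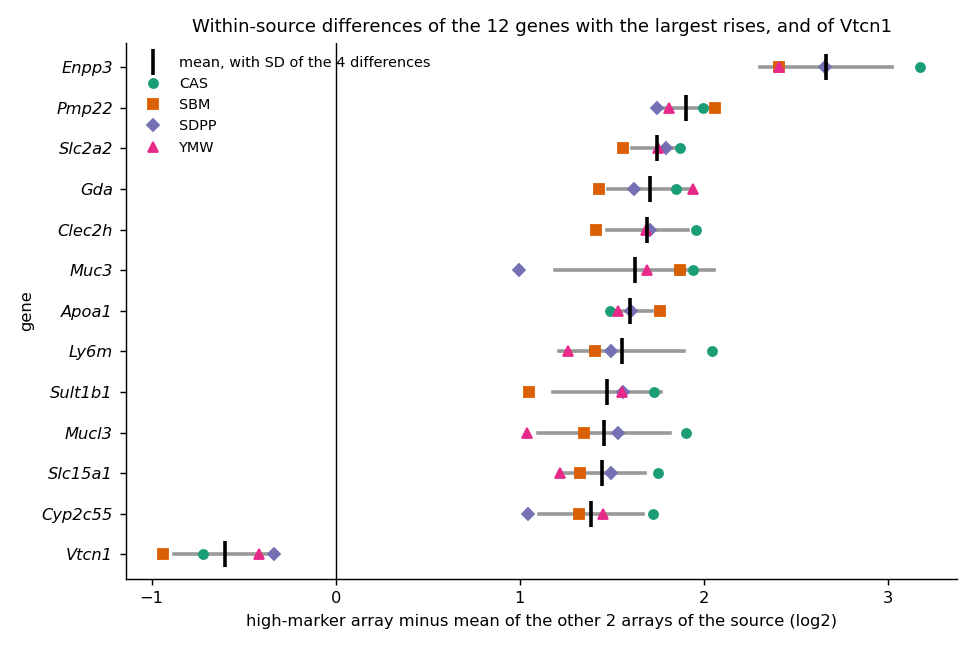
Difference of the high-marker array from the mean of the other 2 arrays of its source on the log2 scale (horizontal axis) for the 12 genes with the largest mean differences and for Vtcn1, with 1 symbol per source, a black bar for the mean and a grey line for the SD of the 4 differences. All 4 sources lie on the same side of 0 for each gene, and Enpp3 has the largest mean, 2.66.

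The digestion and uptake of sugar were represented by 4 counted genes of 12 measured. Sis, the sucrase-isomaltase of the brush border, was at 10.02, 9.56, 10.61 and 9.94 in the high-marker arrays of CAS, SBM, SDPP and YMW, against a lowest value of 8.41, a median of 8.78 and a highest value of 9.93 in the other arrays. Its difference was 1.13 ± 0.29. Only SBM replicate 3 lay within the range of the other arrays, through SDPP replicate 2 alone. The sodium-glucose cotransporter Slc5a1 differed by 0.77 ± 0.14 and the fructose transporter Slc2a5 by 0.72 ± 0.17. Slc2a5 was 1 of 9 among the 138 genes whose 4 high-marker arrays all lay above all 8 others, at 5.44 to 6.07 against 4.67 to 5.38. Over all genes, 0.500% had that order. The maltase-glucoamylase Mgam, at 0.52 ± 0.15, and the trehalase Treh, at 0.45 ± 0.34, were not counted. Lct, the lactase of the neonatal gut, differed by 0.16 ± 0.14 at levels of 4.26 to 4.41 in the high-marker arrays and 3.99 to 4.30 in the others, close to background.

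Of 12 brush border peptidases, 4 were counted, or 2 without YMW replicate 1. Enpep, the glutamyl aminopeptidase, differed by 1.17 ± 0.31, the meprin subunit Mep1b by 1.01 ± 0.04, the aminopeptidase N gene Anpep by 0.77 ± 0.21 and the angiotensin-converting enzyme Ace by 0.59 ± 0.18. Mep1b was the most even of these. Enpep was at 5.79, 5.86, 7.02 and 6.11 in the high-marker arrays of CAS, SBM, SDPP and YMW, against 4.52 to 6.35 with a median of 4.88 in the others, so that only the SDPP array lay above all 8. Dpp4, the dipeptidyl peptidase 4 of the same membrane, differed by 0.03 ± 0.24 and was higher in the high-marker array of CAS, SBM and YMW and lower in that of SDPP. Of 16 amino acid and peptide transporters, Slc15a1 and the cystine and dibasic amino acid exchanger Slc7a9, at 0.84 ± 0.15, were counted, and the median of the list was 0.09, against -0.01 over all genes. Without YMW replicate 1, 1 of the 16 was counted. The microvillus list holds genes of the actin core and of the links between microvilli. It had a median of 0.26, and 15 of its 16 members were higher in all 4 sources, against 10.9% of all genes. With all arrays 1 member was counted, Cdhr2, a protocadherin of the intermicrovillar links, at 0.72 ± 0.11. Without SDPP replicate 2 the count was 4, with the related Cdhr5, the myosin gene Myo1a and Plekhg6 added, without CAS replicate 2 or YMW replicate 2 it was 2, and without CAS replicate 3, SBM replicate 3 or YMW replicate 1 it was 0. The actin bundling protein gene Vil1 differed by 0.30 ± 0.06.

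The assembly of chylomicrons, the particles in which enterocytes export dietary fat, was represented by many genes that were higher in the high-marker arrays. Of 22 measured genes, 10 were counted, all 22 were positive and 20 were higher in all 4 sources, against 10.9% of all genes. Without YMW replicate 1, 5 were counted, and without CAS replicate 3, 6. Apoa1, which was at 9.88, 9.49, 10.70 and 9.70 in the high-marker arrays against 7.32 to 10.30 with a median of 8.14 in the others, had the largest difference. The fatty acid binding protein genes Fabp2 and Fabp1 differed by 1.14 ± 0.32 and 1.05 ± 0.18 and the apolipoprotein gene Apoc3 by 0.91 ± 0.38. Apoc3 was uneven between sources, at 0.40 in CAS and 1.31 in SBM. The microsomal transfer protein gene Mttp, whose product loads lipid onto apolipoprotein B, differed by 0.83 ± 0.18. The acyltransferases Dgat1 and Dgat2, which make triglyceride, differed by 0.64 and 0.63. Apob itself differed by 0.54 ± 0.23, was higher in all 4 sources and was counted, at 0.60, without SDPP replicate 2 but not with all arrays. The fatty acid translocase gene Cd36 differed by 0.10.

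Sterol genes divided by role. The cholesterol importer Npc1l1 differed by 1.20 ± 0.19, and the sterol exporter genes Abcg5 and Abcg8, whose products form 1 transporter, were 2.15-fold and 1.85-fold higher. In the high-marker arrays Npc1l1 was at 8.27 to 8.89, against 6.79 to 8.62 with a median of 7.22 in the others. The synthesis enzymes had smaller values, such as 0.38 for Hmgcs1, 0.27 for Sqle and 0.42 for Lss, and none of them was counted. Insig1, a sterol-regulated inhibitor of the pathway, was the fourth counted gene of the 20, at 0.65 ± 0.19. Among 12 bile acid genes, 5 were counted, namely the export pump Abcc2 at 1.08 ± 0.24, the basolateral transporter subunits Slc51b and Slc51a at 1.00 ± 0.41 and 0.95 ± 0.18, the hormone gene Fgf15 at 0.80 ± 0.20 and the bile acid receptor Nr1h4 at 0.63 ± 0.18. Without CAS replicate 3 the count was 3. Fgf15 was at 6.78 to 6.92 in the high-marker arrays against 5.41 to 6.57 in the others, with no overlap. The ileal bile acid importer Slc10a2 differed by -0.08 ± 0.27, and Fabp6, an ileal carrier of bile acids, was below background at 3.06 to 3.17 in the high-marker arrays and 2.97 to 3.22 in the others.

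Iron transport is a speciality of the duodenum, and reduction, import and export each had a counted gene. The ferric reductase Cybrd1 differed by 0.85 ± 0.14, the apical importer Slc11a2 by 1.02 ± 0.29 and the exporter ferroportin, Slc40a1, by 1.16 ± 0.19, while the ferroxidase Heph differed by 0.45 and was not counted. Slc11a2 was at 9.23, 8.61, 9.48 and 8.84 in the high-marker arrays of CAS, SBM, SDPP and YMW, against 7.73 to 9.12 with a median of 7.90 in the others. The storage genes Fth1 and Ftl1 and the transferrin receptor Tfrc differed by 0.20, -0.01 and 0.04. The fourth counted gene of this list of 19 was Slc30a10, an exporter of manganese, at 1.08 ± 0.25, and without YMW replicate 1 the list had 2. The calcium channel gene Trpv6 differed by 0.17. Of 19 genes of ion and water transport, 4 were counted, and they are genes of sodium absorption and of acid and base exchange. The carbonic anhydrase Car2 differed by 1.31 ± 0.19, the sodium-proton exchangers Slc9a3 and Slc9a2 by 1.22 ± 0.33 and 0.68 ± 0.11, and the anion exchanger Slc26a6 by 1.13 ± 0.10. Without YMW replicate 1, 1 of the 19 was counted. The chloride channel gene Cftr differed by 0.11 and the water channel genes Aqp1 and Aqp3 by -0.31 and -0.24.

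Of 355 measured genes named as solute carriers, 18 were counted higher and none lower, by the same rule of all 4 sources and 1.5-fold. Over all genes the shares were 0.733% higher and 0.0106% lower. Besides those named above they include the folate transporter Slc46a1 at 0.64 ± 0.28. Of 21 retinoid genes, Rbp2, the retinol carrier of the enterocyte, at 1.01 ± 0.23, and the alcohol dehydrogenase Adh1, at 0.63 ± 0.06, were counted. The list median was 0.06. Neither was counted without CAS replicate 3 or without SBM replicate 3, and 1 was without SBM replicate 1, SDPP replicate 3 or YMW replicate 1. Among 18 genes of fatty acid oxidation and peroxisome proliferator-activated receptor targets, 1 was counted with all arrays, the transcription factor Creb3l3. Without SDPP replicate 2 the count was 3, with the receptor gene Ppara and its coactivator gene Ppargc1a added. It was also 3 without SDPP replicate 1, 2 without CAS replicate 2 and 0 without YMW replicate 1.

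Cytochrome P450 genes of drug and fatty acid metabolism formed the group with the second largest median. Of 20 measured genes, 10 were counted, or 5 without SBM replicate 3, and the list median was 0.56. Cyp3a11 was at 5.95, 5.46, 6.85 and 5.87 in the high-marker arrays, against 3.91 to 6.00 with a median of 4.59 in the others, and differed by 1.34 ± 0.41. Its level was 4.95, 9.02 and 9.26 in the MC arrays. The fatty acid hydroxylase Cyp4f14 differed by 1.27 ± 0.31 and Cyp3a13 by 1.15 ± 0.25. Of 13 Cyp2c genes measured, 5 were counted, and they were the 5 with a mean level above background over all arrays, MC included. Among them Cyp2c55 had the largest difference and Cyp2c68, at 0.72 ± 0.40, the smallest. The mean level of Cyp2c68 was raised by MC replicates 2 and 3, at 6.33 and 6.15. Since that mean includes the arrays where a gene is high, nothing is read from the match of the 5. Cyp2c68 was not above background in any of the 8 other arrays or in 1 of the high-marker arrays, so its difference has only a bound on that side. Genes of this family are near copies of each other, so that probes may not tell all of them apart. Cyp1b1 had the opposite sign, at -0.65 ± 0.56, and Cyp2e1 differed by -0.03. Of 21 genes of conjugation, the sulfotransferases Sult1b1, Sult1d1, at 0.87 ± 0.38, and Sult1c2, at 0.85 ± 0.36, were counted, 5 were without SDPP replicate 2, with Sult2b1 and the sulfate donor synthase gene Papss2 added, and 1 was without SBM replicate 3 or YMW replicate 1, while the glutathione transferase Gsta3 and the quinone reductase Nqo1 differed by -0.26 and -0.25. Carboxylesterases, which open ester drugs and lipids, were outside the lists, and 3 of 5 measured Ces2 genes were counted, Ces2e at 0.81 ± 0.20, Ces2b at 0.70 ± 0.13 and Ces2g at 0.68 ± 0.15.

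Promoter sequences from RefSeq (GRCm38.p6), 300 bases long and ending 50 bases after a start site, were at hand for 109 of the 138 genes counted higher and for 14745 of all genes described. The letters CAAAGTCCA, a strong site for nuclear receptors of the HNF4 family of enterocytes and hepatocytes, were present on either strand in 6 of 123 promoters of genes counted higher, or 4.88%, and in 80 of 18151 promoters of all genes described, or 0.441%. These letters were in the promoters of Sult1b1, Cyp3a11, Cyp2c65, Cyp2c68, Trim31 and Btnl2, and stretches of 69 bases of 3 P450 genes and of 2 genes of other families are shown to place the letters, with CAAAGTCCA or its reverse complement in capitals and each stretch read 5′ to 3′ on the strand of its gene.
Cyp3a11: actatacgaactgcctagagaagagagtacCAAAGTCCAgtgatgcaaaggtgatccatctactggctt
Cyp2c65: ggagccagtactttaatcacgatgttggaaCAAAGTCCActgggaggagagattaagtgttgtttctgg
Cyp2c68: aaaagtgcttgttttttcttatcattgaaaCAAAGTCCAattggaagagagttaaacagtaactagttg
Trim31: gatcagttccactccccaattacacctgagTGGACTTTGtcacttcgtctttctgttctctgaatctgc
Btnl2: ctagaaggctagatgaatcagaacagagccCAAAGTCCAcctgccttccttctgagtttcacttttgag
The stretches lie at chr5:145879925-145879993 on the minus strand for Cyp3a11, chr19:39060860-39060928 on the plus strand for Cyp2c65, chr19:39741140-39741208 on the minus strand for Cyp2c68, chr17:36897970-36898038 on the plus strand for Trim31 and chr17:34354751-34354819 on the plus strand for Btnl2. Only matches upstream of the start site are shown, and in Cyp2c68 the letters overlap a CCAAT box. The match in Sult1b1 is not shown, since its first base is base 26 counted downstream from the start site. The mean differences of these genes were 1.34 for Cyp3a11, 0.83 for Cyp2c65, 0.72 for Cyp2c68, 0.67 for Trim31, a ubiquitin ligase gene, and 0.63 for Btnl2, a butyrophilin-like gene. Of the other letters searched on both strands, TTTATTG, of the CDX family, was in 9.76% of the promoters of genes counted higher and in 3.21% of all, AGATAAG, of the GATA family, in 4.88% and 2.51%, and CCAAT in 43.1% and 37.5%. TTCCCGCC, of the E2F family, was in 1.63% and 3.07%, and TTTGAA, of the cell cycle homology region, in 18.7% and 14.8%. A match shows that the letters are there and not that a factor binds them.

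Transcription factor genes of the enterocyte differed by unequal amounts. Hnf4a was at 11.45 to 11.55 in the high-marker arrays and at 11.27 to 11.54 in the others, a difference of 0.11 ± 0.07, and Cdx2 differed by 0.07 ± 0.07. The related Hnf4g differed by 0.51 ± 0.19 and was higher in all 4 sources. Of 21 factors 3 were counted, namely Creb3l3, a membrane-bound activator of lipoprotein genes, at 0.96 ± 0.21, Maf, at 0.94 ± 0.19, and Nr1h4. The count was 6 without SDPP replicate 2, with Hnf4g, Klf4 and Ppara added, without CAS replicate 2 it was 5, and without YMW replicate 1 it was 1. Creb3l3 was at 7.78, 7.49, 8.28 and 7.57 in the high-marker arrays, against 6.34 to 7.88 with a median of 6.73 in the others. Foxa3 had the opposite sign, at -0.36 ± 0.08, and lay below both other arrays in all 4 sources.

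Villus tip genes were counted in 6 of 19, which are Pmp22, the chloride channel accessory genes Clca4b and Clca4a at 1.38 ± 0.15 and 1.34 ± 0.14, Creb3l3, the adenosine deaminase Ada at 0.96 ± 0.21 and the apolipoprotein gene Apoa4 at 0.86 ± 0.33. Without YMW replicate 1 the count was 1. Ada, an enzyme of purine breakdown, was at 9.16 to 9.73 in the high-marker arrays and 7.88 to 9.65 in the others, and at 8.19, 11.69 and 11.95 in the MC arrays. Purine breakdown was also represented outside the lists by Gda and by the xanthine dehydrogenase Xdh, which differed by 0.83 ± 0.12. The mature enterocyte list, which overlaps with several groups above, had 16 counted genes of 23 measured and a median of 0.77. It had 21 genes above both other arrays in all 4 sources, against 4.33% of all genes. Its mean level was 8.39 to 9.06 in the high-marker arrays and 7.54 to 8.68 in the others, of which the 7 arrays without SDPP replicate 2 reached 7.81. Of the 23, 18 were counted without SDPP replicate 2 and 10 without CAS replicate 3 or YMW replicate 1.

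Of the 138 genes, 67 belong to a list and 71 to none. Those in no list include the sulfotransferase Sult6b2 at 1.28 ± 0.31, the P450 Cyp4b1 at 1.27 ± 0.25, the lectin-like Clec2e at 1.16 ± 0.17, the tetraspan protein gene Tm4sf1 at 1.14 ± 0.15, the hexokinase-like Hkdc1 at 1.13 ± 0.29 and the prostaglandin dehydrogenase Hpgd at 0.70 ± 0.30. Hkdc1 was at 8.77 to 9.04 in the high-marker arrays, against 7.27 to 8.91 with a median of 7.65 in the others, and 7 of those 8 were at 7.86 or below. The antigen presentation list had 2 counted genes of 19, the MHC class Ib genes H2-Q2 at 0.90 ± 0.11 and H2-Q1 at 0.77 ± 0.30, of which 1 was counted without CAS replicate 3 or YMW replicate 1. With all arrays, single counted members were Ceacam20 at 0.72 ± 0.17 in the adhesion list, Tubb2a at 0.63 ± 0.20 in the cytoskeleton list and Id3 at 0.60 ± 0.36 in the list of TGF-beta and BMP targets. All 3 lists had none without SBM replicate 3. The cytoskeleton list also had none without CAS replicate 3, SDPP replicate 1 or SDPP replicate 3. The count of TGF-beta and BMP targets was 3 without SDPP replicate 2, with Tgfbi and Bmp2 added, and without SBM replicate 2, it was 2 without CAS replicate 2 or SDPP replicate 1, and it was 0 without CAS replicate 3, SBM replicate 1, SDPP replicate 3 or YMW replicate 1. Of 11 genes of colonic epithelium Muc3 and Mettl7b, at 0.76 ± 0.06, were counted, and 1 was without YMW replicate 1.

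**Figure D3:**
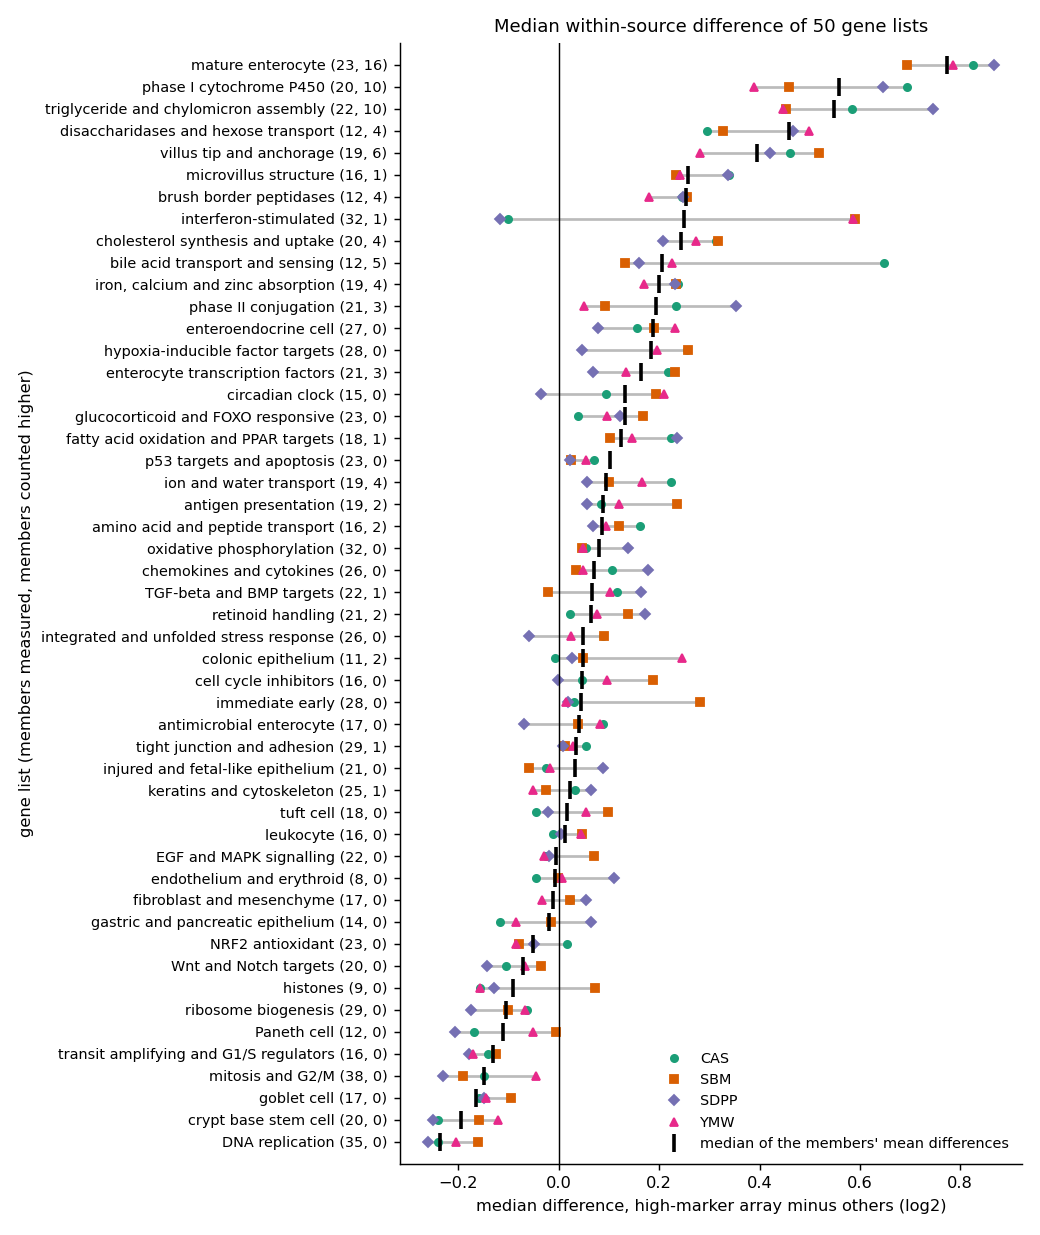
Median difference between the high-marker array and the other arrays of its source (log2, horizontal axis) for 50 gene lists, with 1 symbol per source and a black bar for the median of the members' mean differences. The numbers after each name are the members measured and the members counted higher. The mature enterocyte list has the largest median, 0.77, DNA replication has the smallest, -0.24, and the interferon-stimulated list separates SBM and YMW from CAS and SDPP.

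Genes of the crypt were lower in the high-marker arrays by small amounts and none was counted, with or without SDPP replicate 2. All 20 crypt base stem cell genes had negative mean differences with a median of -0.19, and 15 of them were lower in all 4 sources, against 12.6% of all genes. The ephrin receptor Ephb3 differed by -0.41 ± 0.02, the RNA-binding protein gene Msi1 by -0.40 ± 0.11, Olfm4 by -0.37 ± 0.20 and the R-Spondin receptor gene Lgr5 by -0.17 ± 0.18. Ephb3 was at 8.06, 7.69, 7.77 and 7.52 in the high-marker arrays of CAS, SBM, SDPP and YMW, against 7.82 to 8.59 with a median of 8.11 in the others. Each high-marker array was therefore below its own source but the ranges overlapped across sources. Olfm4 was at 11.23 to 11.49 in the high-marker arrays and 11.39 to 11.89 in the others.

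DNA replication genes had a median of -0.24, with 34 of 35 negative and 27 lower in all 4 sources. The mitosis list had a median of -0.15, with 38 of 38 negative and 21 lower in all 4 sources. Over all genes the median was -0.01, and 12.6% were lower in all 4 sources. The replication initiation gene Gins1 differed by -0.44 ± 0.16, the replicative helicase subunit Mcm7 by -0.39 ± 0.06, the mitotic kinase Melk by -0.31 ± 0.06 and the kinetochore gene Ndc80 by -0.26 ± 0.02. The proliferation marker Mki67 was at 9.60 to 9.98 in the high-marker arrays and at 9.64 to 10.15 in the others, a difference of -0.07 ± 0.22. Among G1/S genes, Stmn1, a microtubule destabilizer of dividing cells, differed by -0.35 ± 0.07 and E2f1 by -0.31 ± 0.08. Ribosome biogenesis genes had a median of -0.11, with 28 of 29 negative, and Fbl, a methyltransferase of the nucleolus, differed by -0.27 ± 0.15. The Wnt and Notch target list had a median of -0.07, with Ascl2 at -0.29 ± 0.17 and Dll4 at -0.28 ± 0.16. Of 16 cell cycle inhibitors none was counted, and the largest values were 0.43 ± 0.26 for Rb1 and 0.39 ± 0.22 for Gadd45a.

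With all arrays, none of the lists of secretory cells had a counted gene. The goblet cell list had a median of -0.16, with Foxa3 at -0.36 ± 0.08 and the mucus protein gene Zg16 at 0.38 ± 0.19, so that its members differed in sign. Its mean level was 7.90 to 7.99 in the high-marker arrays and 8.00 to 8.12 in the others. The sides thus did not overlap, as for the stem cell list, but they lay close together. The Paneth cell list had a median of -0.11, and the lysozyme gene Lyz1 was at 11.19 to 11.35 in the high-marker arrays, against 11.34 to 11.60 in the others, a difference of -0.26 ± 0.14. The enteroendocrine list had a median of 0.19 with none of 27 counted. Its largest members were the hormone gene Cck, at 0.57 ± 0.14, and the serotonin synthesis enzyme Tph1, at 0.48 ± 0.12, and both lay above both other arrays in all 4 sources. Cck was counted at 0.64 without SDPP replicate 2, and the list also had 1 counted gene without CAS replicate 2, SBM replicate 2 or SDPP replicate 1. The tuft cell list had a median of 0.02. The antimicrobial enterocyte list had a median of 0.04, with the C-type lectin Reg3b at 0.55 ± 0.11, which was counted at 0.65 without SDPP replicate 2.

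Interferon-stimulated genes were higher in the high-marker arrays of SBM and YMW and not in those of CAS and SDPP. Their list mean was 6.94 in SBM replicate 3 and 6.75 in YMW replicate 1, against 5.97 and 6.64 in the other SBM arrays and 6.05 and 6.27 in the other YMW arrays. It was 6.55 in CAS replicate 3 and 6.51 in SDPP replicate 1, against 6.56 and 6.72 in the other CAS arrays and 6.70 and 6.56 in the other SDPP arrays. The median differences were 0.59 in SBM, 0.59 in YMW, -0.10 in CAS and -0.12 in SDPP, and the difference between sources was not tested. Isg15, a ubiquitin-like protein gene, differed by 1.08 in SBM and 0.86 in YMW, and by -0.12 in CAS and -0.03 in SDPP. With all arrays 1 of the 32 genes was counted, the interferon regulatory factor Irf7, at 0.64 ± 0.45. Without SDPP replicate 2 the count was 3, with the antiviral genes Oasl1 and Trim30a added, without SDPP replicate 1 it was 2, and without CAS replicate 3, SBM replicate 1 or YMW replicate 1 it was 0. The MC arrays had list means of 6.18, 6.19 and 6.27.

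**Figure D4:**
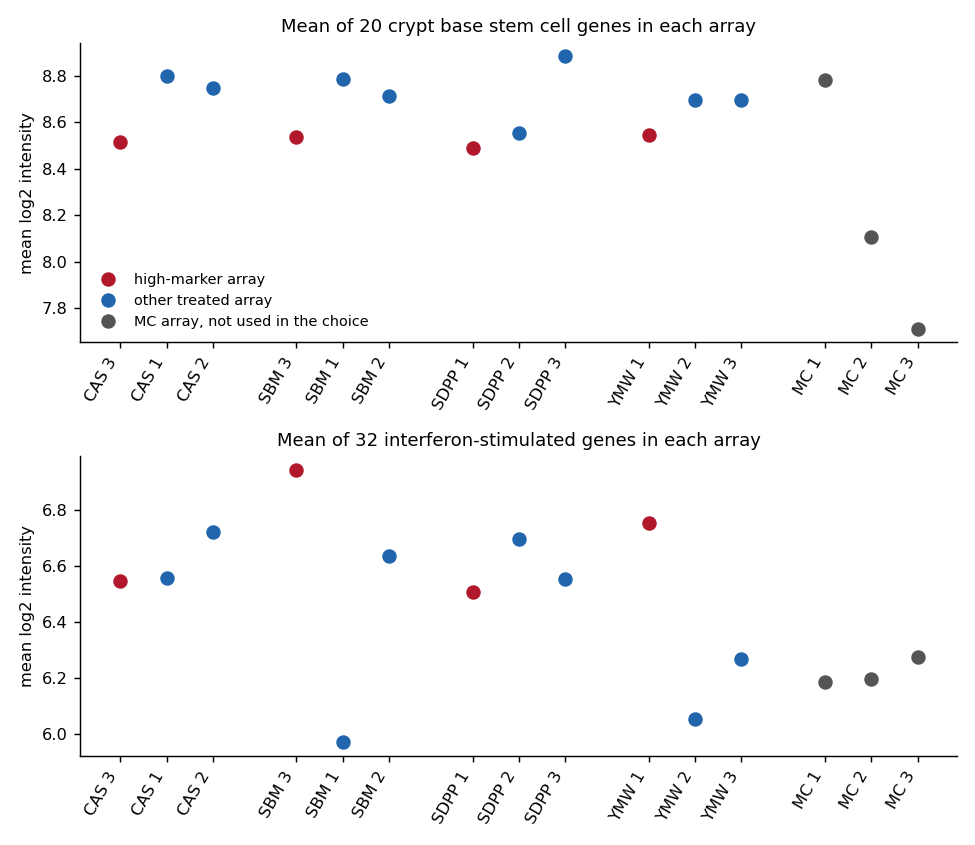
Mean log2 intensity (vertical axes) of 20 crypt base stem cell genes (top) and of 32 interferon-stimulated genes (bottom) in each array, with high-marker arrays in red, other treated arrays in blue and MC arrays in grey. The stem cell mean is 8.49 to 8.54 in the high-marker arrays and 8.56 to 8.88 in the other treated arrays, and the interferon mean is highest in SBM replicate 3, at 6.94.

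Lists that mark other cell types differed little between the sides. The fibroblast list had a mean level of 4.30 to 4.47 in the high-marker arrays and 4.33 to 4.48 in the others with a median difference of -0.01, and 11 of its 17 genes were above background. The leukocyte list was at 4.06 to 4.18 and 4.03 to 4.18, with 6 of 16 above background, and the endothelial and erythroid list at 3.99 to 4.07 and 3.93 to 4.13, with 3 of 8 above background. The pan-leukocyte gene Ptprc was below background in all treated arrays, at 3.54 to 3.69 in the high-marker arrays and 3.40 to 3.80 in the others. The gastric and pancreatic list had a median difference of -0.02.

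The 2 genes counted lower were Vtcn1, which encodes a T cell inhibitory ligand of the B7 family, and the small nucleolar RNA gene Snord118, each at -0.60. Vtcn1 was at 5.06, 4.52, 5.19 and 5.23 in the high-marker arrays of CAS, SBM, SDPP and YMW, against 5.23 to 5.81 with a median of 5.67 in the others, and its SD was 0.28. Its level in the MC arrays was 5.65, 4.06 and 4.18. The other 3 genes with a mean of 1.5-fold or more downward failed in SDPP, where replicate 2 was at or below replicate 1. They were Cym, the milk-clotting protease chymosin, at -0.81 ± 0.32, the gastrokine gene Gkn3 at -0.66 ± 0.31 and Cyp1b1. Without SDPP replicate 2, these 3 and Prelp, Ccdc3 and Nox1 were added to the genes counted lower. Cym was at 6.84 to 7.79 in the high-marker arrays and 7.21 to 9.13 in the others, and at 7.86, 4.80 and 4.90 in the MC arrays.

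The unchosen arrays of a source were also compared for these genes, as a description. The genes were picked in these same arrays through the marker mean, so no support is drawn from the counts. Between the 2 unchosen arrays of a source, the one with the higher marker mean was higher for 118 of the 138 genes in CAS, 116 in SBM, 138 in SDPP and 86 in YMW, where the gaps in marker mean were 0.28, 0.54, 1.31 and 0.07. Over all genes the shares were 46.1%, 38.1%, 50.5% and 48.4%. SDPP replicate 2 was above the other 7 arrays of its side for 137 of the 138 genes, with Cyp2c68 as the exception, against 17.4% of all genes. As a result the 4 high-marker arrays lay above all 8 others for 9 of the 138 genes, and above the 7 without SDPP replicate 2 for 134. Over all genes these shares were 0.500% and 3.09%.

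The MC arrays, which the choice did not use, showed the same genes over a wider range. MC replicates 2 and 3 were both above MC replicate 1 for 137 of the 138 genes, against 36.5% of all genes, and the exception was the prostaglandin E synthase gene Ptges. The median gene was 2.01 higher in MC replicate 2 and 2.20 higher in MC replicate 3 than in MC replicate 1. Both were above all 12 treated arrays for 124 of the 138 genes, against 11.3% of all genes. Among the 14 others were Pmp22, Enpep, Anpep, Fabp1, Mucl3 and Mettl7b. Anpep was at 9.22 to 9.98 in the high-marker arrays and 8.09 to 9.44 in the other treated arrays, and at 8.29, 8.91 and 9.11 in the MC arrays. The stem cell list mean was 8.78, 8.11 and 7.71 in MC replicates 1, 2 and 3, so that MC replicates 2 and 3 lay below all treated arrays. What separates the MC arrays from each other was not tested.

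**Figure D5:**
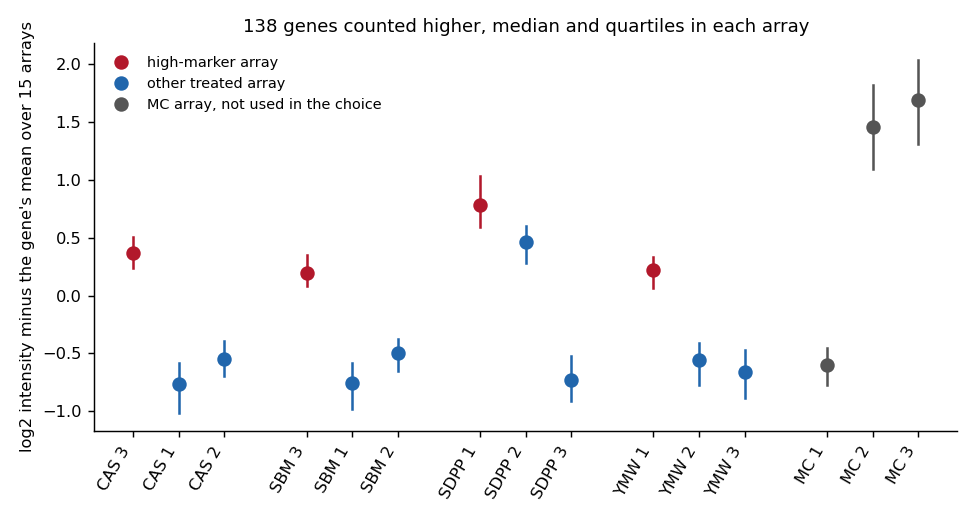
Log2 intensity minus the mean of the gene over the 15 arrays (vertical axis) for the 138 genes counted higher, as median (point) and quartiles (line) in each array, with high-marker arrays in red, other treated arrays in blue and MC arrays in grey. The high-marker medians are 0.19 to 0.78, SDPP replicate 2 is at 0.46, the other 7 treated arrays are at -0.76 to -0.50, and MC replicates 2 and 3 are at 1.45 and 1.69.

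Genes were also ordered by their correlation with the marker mean over the 12 treated arrays, after the mean of each source had been subtracted, as a description with no test since the arrays share their normalization. Of genes above background, Enpp3, Apoa1, Clca4a, Npc1l1, Tm4sf4, Smim24, Pnliprp2 and Pdk2 had the highest values. Among them the pancreatic lipase related Pnliprp2 differed by 1.24 ± 0.08, the tetraspan protein gene Tm4sf4 by 1.21 ± 0.11 and the small membrane protein gene Smim24 by 0.86 ± 0.09. Pdk2, a kinase that restrains pyruvate dehydrogenase, followed the marker mean over a narrow range, with a difference of 0.37 ± 0.04. The lowest values were those of Prpf19 and Snu13, genes of the spliceosome, the calponin gene Cnn3 and Stmn1, with differences of -0.26 ± 0.02, -0.17 ± 0.03, -0.34 ± 0.07 and -0.35 ± 0.07. Across all 18816 genes, the differences of 1 source correlated with those of another with r between 0.20, for SBM and SDPP, and 0.44, for CAS and YMW, over the 6 pairs of sources, and with r between 0.06 and 0.34 when the 140 counted genes were left out.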

How the data were processed

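Total RNA of 15 samples had been hybridized to Affymetrix mouse gene 1.1 ST arrays. Before they were deposited, the intensity values had been computed by the authors with RMA, which removes background, equalizes the arrays by quantiles and summarises probes. Its version is not given in the sources used here. The values are linear, so log2 was taken. The platform annotation gave 1 symbol to 21218 of 35556 probe sets, several to 1881 and none here to 12457. Each of 18820 genes was read from its brightest probe set on average, and the 4 markers were then left out. Background was the 95th percentile of 1157 receptors of smell, and 12876 genes had a mean above it. Precision is limited by the number of arrays.

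Differences were computed within sources in Python 3.11.15 with numpy 2.4.6 and pandas 2.3.3. The steps recovered known shifts in simulated data with independent genes, limited noise and equal shifts above the 1.5-fold limit. These data are less simple, so the recovery checks the computation and not the choice of arrays or of genes near the limit. No test of a difference between the sides was made, since the arrays were chosen by the same measurements. An outlier threshold was used only to flag values for a closer look. The members, the 50 gene lists (939 of 1050 genes measured) and the settings were chosen with earlier results of these data known. Named are the 12 genes with the largest differences each way among counted genes above background, up to 4 counted members of a list or 2 where none was counted, and the 8 genes most like and 4 most unlike the marker mean. The first of these leaves out small RNAs, receptors of smell and predicted genes. All other genes named were chosen after their values had been seen. The authors' assays other than the arrays are not analysed here.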

Additional observations from a re-analysis of the deposited data

Results flagged for a closer look

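Over the 8 other treated arrays, SDPP replicate 2 was far above the rest for the marker mean, at 11.60 against 9.93 to 10.55, and for 12 list means. It was at 8.68 for mature enterocyte genes, 8.34 for villus tip genes, 5.46 for brush border peptidases, 6.37 for disaccharidases and hexose transport, 9.45 for microvillus structure and 8.81 for triglyceride and chylomicron assembly. It was at 5.81 for bile acid genes, 8.36 for iron, calcium and zinc absorption, 7.40 for amino acid and peptide transport, 6.89 for ion and water transport, 8.61 for enterocyte transcription factors and 5.06 for colonic epithelium. Among the 4 high-marker arrays, SDPP replicate 1 was far above the rest for retinoid handling, at 6.20 against 6.03 to 6.05, and for phase II conjugation, at 8.42 against 8.15 to 8.19, and far below for the circadian clock, at 6.58 against 6.67 to 6.68. These 16 values come from 102 comparisons of an end value with its neighbours by an outlier threshold. The threshold is set for chance to pass it about 1 time in 20. That rate does not hold here, since the marker mean set the sides and each side spans 4 sources. Lists also share genes, and nothing is read from the number of values.

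Of the named genes, 52 values stood apart in the same way in 244 comparisons. SDPP replicate 2 was the highest of the 8 arrays in 48 of them and the lowest in 1. The other 3 were SDPP replicate 1 for Anpep and Sult1d1, at 9.98 and 9.63, and YMW replicate 1 for Cd68, a macrophage gene, at 6.63 against 6.10 to 6.14 in the other high-marker arrays.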

How the results depend on the processing

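Of the settings, the minimum fold moved the count of genes higher by most genes, followed by leaving out YMW replicate 1 and SDPP replicate 2. As a ratio, leaving out CAS replicate 3 or SBM replicate 3 moved the count more than leaving out SDPP replicate 2. With a minimum of 2-fold, 43 genes were counted higher and 0 lower, and with no minimum 814 and 764. When only the sign had to be the same in all 4 sources, 148 were counted higher and 5 lower. Without CAS, SBM, SDPP or YMW, 139, 161, 153 and 153 genes were counted higher and 1, 6, 12 and 1 lower. When 1 array was left out and the choice was made again, between 76 and 195 genes were counted higher and between 0 and 9 lower. The lowest count came without YMW replicate 1, and without CAS replicate 3 and SBM replicate 3, the high-marker arrays, the counts were 87 and 90. The highest came without SDPP replicate 2. Under every setting that kept 4 sources and 12 arrays and the 1.5-fold minimum with arrays beyond both others, between 133 and 138 genes were counted higher and 2 lower, whether genes were filtered on background, probe sets were averaged, arrays were centred or normalized again, or the marker mean was taken without 1 of its genes or on the linear scale. The same 4 arrays were chosen in each of these. The differences of the counted genes that are named moved by over 1 SD in 138 of 1512 values and changed sign in 0. No paired analysis was possible because the counts come from no test and the arrays compared are of 1 source.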

Other observations

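Fn1, the fibronectin gene of the extracellular matrix, had a pattern apart from the enterocyte genes. It was at 7.35, 7.14, 7.80 and 8.05 in the high-marker arrays of CAS, SBM, SDPP and YMW and at 7.36 to 8.13 in the other treated arrays, a mean difference of -0.17 ± 0.36, with MC replicate 1 at 8.12. In MC replicates 2 and 3 it was at 4.24 and 4.34. Tph1 and Cck, enteroendocrine genes that were higher in the high-marker arrays in all 4 sources, parted in the MC arrays. Tph1 was at 6.80, 6.65 and 6.86 and Cck at 5.45, 6.72 and 6.96 in MC replicates 1, 2 and 3.

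Among the 14338 probe sets with several symbols or none here, 70 were counted higher, or 0.488%, and 13 lower, or 0.0907%. No background limit was applied to these probe sets, and none of the 13 counted lower had a symbol here. Some on each side had a mean log2 intensity below the background of 3.91. The lowest means were 2.63 among those counted higher and 2.99 among those counted lower. These counts therefore include probe sets with a mean near the floor, whereas the 138 genes counted higher each had a mean above background. Even so, 4 of the 138 were not above background in at least 1 of the other treated arrays. A probe set shared by Prl2c2, Prl2c3 and Prl2c4 differed by 1.58, 1 shared by Clca4a and Clca4b by 1.28 and 1 shared by Prepl and the amino acid transporter subunit gene Slc3a1 by 1.14.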
